A study of Mus musculus with 2 samples.

Results

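The interferon regulatory factors (IRFs) are a family of transcription factors that share an amino-terminal DNA-binding domain and recognise repeats of the letters GAAA. Transcript levels of 8 family genes, Irf1, Irf2, Irf3, Irf4, Irf5, Irf7, Irf8 and Irf9, were read from mouse bone marrow-derived macrophages. These 8 were taken as a list of symbols and matched to the 55536 annotated genes of the deposited gene table, and all 8 were present.

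The macrophages were primary cells derived from bone marrow of the mouse strain C57BL/6J, with no transgene or deletion named in the labels and with sex and age not collected. All cells had received the same regimen: lipid A at 100 ng/ml for 12 h, a washout of 12 h and a second exposure to lipid A at 100 ng/ml lasting 120 min, after which RNA was taken for polyA plus sequencing. Lipid A, the lipid part of lipopolysaccharide from Gram-negative bacteria, activates the TLR4 receptor. Some label fields call the agent lipoprotein A in place of lipid A. The 2 libraries form 1 group, labelled biological replicates 1 and 2, and no unstimulated or once-stimulated cells were analysed here, so no value below measures a change caused by lipid A. Both libraries carry 1 donor identifier and the labels name no separate animals, so what differs between them may be partly technical.

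In macrophages the family carries the signal from microbial sensors to the interferon genes and from the interferon receptors to the interferon-stimulated genes. IRF3, which is made constitutively, is phosphorylated by the kinases TBK1 and IKKε below the adaptor TRIF and switches on the interferon-beta gene. IRF7 is itself encoded by an interferon-stimulated gene and amplifies the response, IRF5 works below the adaptor MyD88 on cytokine genes, and IRF9 is the DNA-binding subunit of the ISGF3 complex, which acts below the interferon receptors. IRF1 activates and IRF2 mostly dampens genes with the same binding element, while IRF4 and IRF8 bind DNA together with PU.1 and help set lymphoid and myeloid cell fates.

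The sequences below are, first, parts of the Irf7 transcript that differ between its isoforms, then the start-site windows of 4 members. Irf7 lies on the minus strand of chromosome 7 in build GRCm38 (mm10), and its sequences are given 5′ to 3′ on the transcribed strand. The segment between a pair of alternative splice acceptors, chr7:141264560-141264655, is 96 bases of coding exon that Irf7-201 and Irf7-202 hold and Irf7-203 skips. The skipped exon, chr7:141264223-141264315, is 93 coding bases that Irf7-201 and Irf7-203 hold and Irf7-202 lacks. The retained intron, chr7:141264656-141264724, is 69 bases kept in Irf7-210. Capitals mark the GT and AG at intron ends, including the AG that closes the segment and so forms the downstream acceptor.
Irf7 segment between acceptors: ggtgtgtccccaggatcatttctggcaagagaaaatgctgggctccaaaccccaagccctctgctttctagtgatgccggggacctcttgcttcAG
Irf7 skipped exon: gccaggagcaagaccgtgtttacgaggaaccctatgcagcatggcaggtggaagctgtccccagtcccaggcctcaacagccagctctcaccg
Irf7 retained intron: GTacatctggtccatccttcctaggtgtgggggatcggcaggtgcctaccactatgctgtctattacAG

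The windows run from 250 bases before to 50 bases after a RefSeq start site on GRCm38.p6, and all 8 members matched, with 11 windows in all. Capitals mark matches, on either strand, to an interferon-stimulated response element (ISRE, GAAA and GAAA, 2 bases apart), an interferon-gamma activated STAT element (GAS, TTCNNNGAA) or an ETS-IRF composite element (EICE, GGAA and GAAA, 2 bases apart). The windows of Irf1, Irf2 and Irf8 are shown because they hold such matches, and that of Irf7 because Irf7 was the most abundant member.
Irf7, chr7:141266375-141266674, minus strand: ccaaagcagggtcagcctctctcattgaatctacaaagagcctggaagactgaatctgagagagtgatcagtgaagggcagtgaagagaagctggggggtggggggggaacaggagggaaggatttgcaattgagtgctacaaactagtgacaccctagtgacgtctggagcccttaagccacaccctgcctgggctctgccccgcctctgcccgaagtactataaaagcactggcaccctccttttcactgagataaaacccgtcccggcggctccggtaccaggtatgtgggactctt
Irf1, chr11:53769764-53770063, plus strand: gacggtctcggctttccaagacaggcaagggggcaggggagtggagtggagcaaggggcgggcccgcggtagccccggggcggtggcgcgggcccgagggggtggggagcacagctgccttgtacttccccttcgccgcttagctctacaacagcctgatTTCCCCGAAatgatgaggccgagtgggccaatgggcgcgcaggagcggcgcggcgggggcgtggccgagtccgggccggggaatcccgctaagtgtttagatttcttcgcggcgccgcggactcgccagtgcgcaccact
Irf8, chr8:120736108-120736407, plus strand: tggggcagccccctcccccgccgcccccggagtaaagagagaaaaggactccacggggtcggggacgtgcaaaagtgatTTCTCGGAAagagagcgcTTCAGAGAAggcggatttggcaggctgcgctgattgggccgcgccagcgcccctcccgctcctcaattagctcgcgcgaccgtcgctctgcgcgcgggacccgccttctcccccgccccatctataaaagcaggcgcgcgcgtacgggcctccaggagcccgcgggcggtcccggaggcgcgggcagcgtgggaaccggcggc
Irf2, chr8:46739495-46739794, plus strand: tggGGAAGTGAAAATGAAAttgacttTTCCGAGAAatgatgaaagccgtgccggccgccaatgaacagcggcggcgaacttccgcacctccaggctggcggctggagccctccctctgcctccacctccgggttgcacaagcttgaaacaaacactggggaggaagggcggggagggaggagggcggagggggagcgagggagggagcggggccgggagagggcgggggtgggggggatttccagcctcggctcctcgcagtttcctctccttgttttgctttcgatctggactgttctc

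Irf1 held the GAS match TTCCCCGAA with its first base at -90, counted from the start site. Irf8 held 2 GAS matches, TTCTCGGAA at -171 and TTCAGAGAA at -153. Irf2 held an EICE match at -247 and an ISRE match at -241 that overlap by 4 bases, and a GAS match at -224. No ISRE, GAS or EICE match lay in the windows of the other 5 members. Over all 32841 windows of the same length, 3.44% held the ISRE letters, 8.30% the GAS letters and 2.72% the EICE letters. A loose NF-kB pattern, GGGNNNNNCC, is not capitalised: it matched 8 of the 11 windows, at least 1 for each member, against 50.8% of all windows. In Irf1 it includes GGGGAATCCC at -13, and in Irf2 GGGGATTTCC at -17. A match is a description of the letters only.

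Irf7 dominated the family, with 65.9% and 66.6% of the summed transcript level, and the other members ranged from 540.15 TPM (Irf1, replicate 1) down to 0.34 TPM (Irf4, replicate 1). Levels are TPM, abundances corrected for transcript length and scaled to a fixed total per library, which can be compared between genes. A level of at least 10 TPM in both libraries was reached by every member except Irf4, and by 27.2% of the 22028 protein-coding genes. The 8 members summed to 3083 TPM in replicate 1 and 2958 TPM in replicate 2. Their order by level was the same in both libraries: Irf7, Irf1, Irf5, Irf8, Irf9, Irf2, Irf3, Irf4. In the gene table no neighbours in that order had overlapping values.

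**Figure D1:**
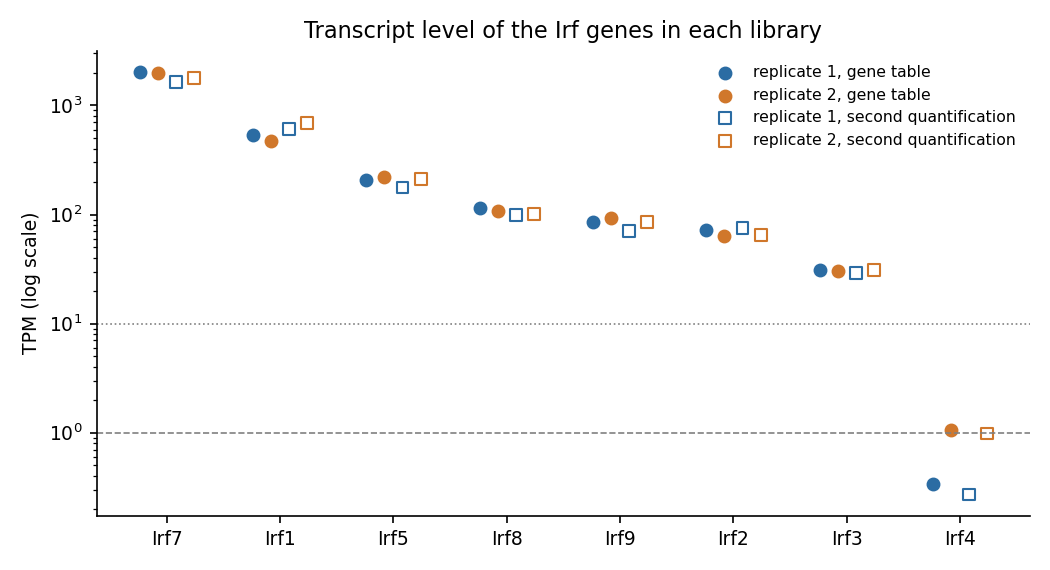
Level of each Irf gene in TPM (vertical axis, log scale), with 1 point per library. Filled circles are the gene table and open squares the second quantification, the dotted line is 10 TPM and the dashed line 1 TPM. Irf7 stands near 2000.2 TPM, 6 genes lie between 30.54 and 540.15 TPM in the gene table, and Irf4 lies at or under 1.06 TPM.

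Among the factors that act directly below the microbial sensors, Irf7 was at 2031.27 TPM in replicate 1 and 1969.11 TPM in replicate 2, or 2000.2 ± 44.0 TPM (SD, n = 2). That made it the gene ranked 48 and 51 among protein-coding genes. Its deposited expected counts, the estimated reads assigned to the gene, were 101981 and 68233. Irf3, the constitutive factor of the pair, was at 31.30 and 30.54 TPM, or 30.9 ± 0.54 TPM, ranked 3476 and 3584. Irf7 transcripts thus outnumbered Irf3 transcripts 64.9 to 1 in replicate 1 and 64.5 to 1 in replicate 2. A second deposited quantification, made from the reads without an alignment file, gave 56.7 and 56.8. Irf5, the partner of MyD88, was at 208.09 and 220.24 TPM, or 214 ± 8.59 TPM, between the other two in both libraries.

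Irf1, the activator that answers both interferon-gamma and NF-kB signals, was the next most abundant member after Irf7, with 540.15 and 472.37 TPM, or 506 ± 47.9 TPM. Its antagonist Irf2 was at 71.65 and 63.60 TPM, or 67.6 ± 5.69 TPM. The Irf1 to Irf2 ratio was 7.54 in replicate 1 and 7.43 in replicate 2. In the second quantification it was 8.19 and 10.7, so Irf1 was several times higher than Irf2 in every case. Irf9, the DNA-binding subunit of ISGF3, was at 85.85 and 93.36 TPM, or 89.6 ± 5.31 TPM. Its order relative to Irf2 depended on the quantification: in the second, Irf9 had 70.96 and 85.74 TPM and Irf2 74.64 and 64.48 TPM, so that their values overlapped.

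The haematopoietic pair that binds with PU.1 was split. Irf8, which is known for its role in the monocyte lineage, was at 113.95 and 107.47 TPM, or 111 ± 4.58 TPM. Irf4 was at 0.34 and 1.06 TPM, or 0.70 ± 0.51 TPM, from 48 and 101 reads. Irf8 was therefore 335 times as abundant as Irf4 in replicate 1 and 101 times in replicate 2. Spi1, which encodes PU.1, was at 496.9 and 608.54 TPM.

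Several members overlap other genes in the annotation, and since use of strand in counting is not given in the sources used here, reads there cannot be assigned with certainty. Irf8 (chr8:120736358-120756694) lies whole within Gm20388, a very long model on the same strand with 37.16 and 27.21 TPM. The 3′ end of Irf5 (chr6:29526625-29541871) overlaps the nuclear import gene Tnpo3 on the opposite strand by 1045 bases. The expected counts of Irf5 and Tnpo3 are fractional but sum to whole numbers, 14297 and 8986, so reads were divided between them. Irf3 (chr7:44997648-45002848) overlaps Bcl2l12 by 1065 bases on the opposite strand, with 8.59 and 10.21 TPM for Bcl2l12. The expected counts of Irf3 (1442 and 834), Bcl2l12 (212 and 129) and Irf8 (9108 and 5829) are whole numbers. Those of Gm20388 (4279.92 and 2124.83) are fractional. The counts of Irf3 and Irf8 thus show no reads divided as for Irf5. The other overlaps were smaller or with genes hardly read: Irf7 (chr7:141262706-141266481) shares 45 bases with Phrf1, and Irf9 (chr14:55603571-55610030) shares 123 with Rnf31. Irf1 (chr11:53770014-53778374) contains Gm17334, at 0.97 and 1.34 TPM. Irf2 (chr8:46739732-46847458) contains Gm45479, Gm31172 and Gm45481, each under 1 TPM in both libraries, and Irf4 (chr13:30749226-30766976) overlaps no gene.

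Between the libraries Irf4 moved most and Irf1 next, while the other 6 members moved little by reads. Expected counts were compared as the log2 ratio of replicate 2 to replicate 1, with library sizes scaled by TMM, a method that sets the bulk of genes to no change. Irf4 was 3.09-fold higher in replicate 2 (log2 ratio 1.63), outside the central 95% of all tested genes, which ran from -1.43 to 1.41. By TPM, Irf4's log2 ratio was 1.61 with a pseudocount of 0.01 and 0.62 with a pseudocount of 1, a value near its own level. Irf1 was 1.36-fold higher in replicate 1 (log2 ratio -0.44), just outside the central 50%, which ran from -0.40 to 0.33. The other 6 had log2 ratios from -0.23 (Irf3) to 0.12 (Irf9), within that central range. The median size of the log2 ratio was 0.16 over the 8 members and 0.36 over the 12552 genes tested. Restricted to a mean of 1000 reads or more, it was 0.12 over 7 members and 0.30 over 5039 genes.

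An exact two-sided binomial test with Benjamini-Hochberg adjustment compared the reads of the 2 libraries, not conditions, and at these depths small differences pass it. It called 7 of the 8 members different, where 65.1% of the 12552 tested genes (mean expected count of 10 or more) were called. Of the 7, 5 were higher in replicate 1, as were 33.1% of tested genes, and 2 were higher in replicate 2, as were 32% of tested genes. At a mean of 1000 reads or more, 6 of 7 members were called, against 84.5% of all such genes, so the members' share is near the background. Irf4 was the 1 member at least 2-fold apart, against 11.3% of tested genes.

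By that exact binomial test Irf1 was lower in replicate 2 than in replicate 1 with an adjusted p of 4.53e-220, from 31220 and 15543 expected counts. Irf4 was higher in replicate 2 with an adjusted exact p of 8.61e-11, as was Irf9, by a log2 ratio of 0.12, at 5.4e-05. Irf5 had a log2 ratio of -0.20 (adjusted exact p = 2e-20), Irf3 -0.23 (0.000606) and Irf8 -0.08 (0.00161). Irf7 differed by a log2 ratio of -0.02, with an adjusted exact p of 0.0303. Under DESeq2 size factors that ratio was 0.01 with an adjusted exact p of 0.541, so the Irf7 call and its direction rest on the scaling. Irf2, at a log2 ratio of 0.03, did not pass (adjusted exact p = 0.522). The call of Irf9 was lost when library totals replaced TMM, at an adjusted exact p of 0.065. Totals moved the median of all tested genes from -0.03 to -0.09 and the calls to 38.0% higher in replicate 1 and 27.9% higher in replicate 2.

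**Figure D2:**
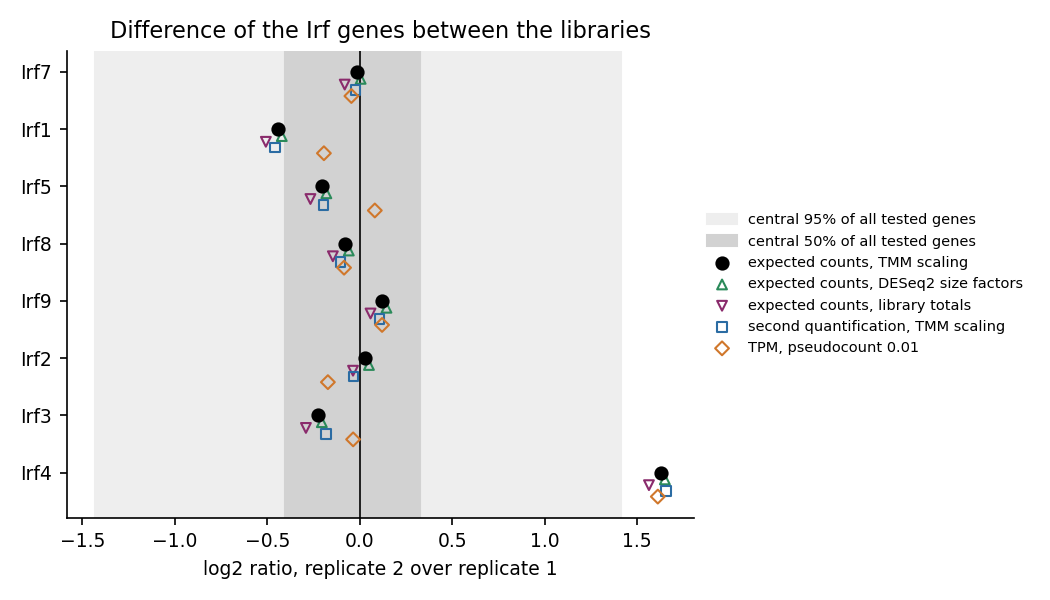
Log2 ratio of replicate 2 over replicate 1 (horizontal axis) of each member under 5 ways of scaling or quantifying, marked by symbol. The dark band holds the central 50% and the light band the central 95% of all tested genes: Irf4 lies outside both, Irf1 at the edge of the dark band by counts, and with TPM at a pseudocount of 0.01 the symbols for Irf1, Irf2, Irf3 and Irf5 lie furthest from those for counts.

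For 4 members the comparison by reads and by TPM differed in the gene table. The deposited table gives each gene a length in each library. Irf5 had fewer scaled reads in replicate 2 (log2 ratio -0.20) but more TPM (0.08), and its deposited length was 16.0% shorter there. Irf1 was 1.36-fold higher in replicate 1 by reads and 1.14-fold by TPM, with a length 14.2% shorter in replicate 2. In the second quantification Irf1 was instead higher in replicate 2 by TPM, with 611.12 in replicate 1 and 692.24 in replicate 2. Irf7 (1651 and 1771 TPM), Irf8 (98.5 and 102 TPM) and Irf3 (29.1 and 31.2 TPM) turned in the same way. Only TPM turned: by scaled reads of the second quantification each of these stayed lower in replicate 2. The log2 ratios there were -0.46 (Irf1), -0.02 (Irf7), -0.10 (Irf8) and -0.18 (Irf3). The deposited lengths of Irf7 and Irf8 changed by only 1.25% and -0.04%. TPM of the second quantification was not compared over all genes, so whether these turns are particular to the members was not tested. Irf3 was 10.9% shorter in replicate 2, with a log2 ratio of -0.23 by reads and -0.04 by TPM. Irf2 was 12.5% longer there and had a log2 ratio of 0.03 by reads and -0.17 by TPM. Over 4694 protein-coding genes with at least 2 transcripts and, on average, 1000 reads or more, 16.6% were at least 10% shorter and 6.09% at least 10% longer, against 3 and 1 of 7 members.

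Irf7 reads were divided mainly among 4 annotated transcripts, and in the alignment-based table their order of share was the same in both libraries. Irf7-201, with a coding sequence of 1371 bases, held 42.7% and 49.1% of the gene's TPM in replicates 1 and 2. Irf7-203, which uses the downstream acceptor and so lacks the 96-base segment (coding sequence of 1275 bases), held 24.0% and 28.1%, and its annotated end lies 477 bases further downstream. Irf7-202, which lacks the 93-base exon (1278 coding bases), held 20.3% and 10.4%. Irf7-210, annotated as a retained intron with no coding sequence, held 6.35% and 5.65%. In reads, with the posterior SD deposited beside them, Irf7-202 went from 19162 ± 371 to 6484 ± 223 while Irf7-201 went from 44455 ± 457 to 33691 ± 358, before any scaling for depth.

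Of the TPM of Irf7 transcripts that either hold a sequence whole or splice across it, those with the 96-base segment made up 73.1% in replicate 1 and 68.6% in replicate 2. The 93-base exon was in 78.1% and 88.4%, and the 69-base intron in 7.09% and 6.27%. Both coding segments have a length divisible by 3, so neither shifts the reading frame. The second quantification placed the segment in 81.6% and 81.0%, the exon in 85.2% and 91.8% and the intron in 8.48% and 8.35%. The exon was thus included more in replicate 2 by both quantifications, whereas Irf7-203 held 13.7% and 15.7% in the second, well under its share in the first. Irf7-202 held 14.29% and 7.996% there, so that the order of the models after Irf7-201 differed between the libraries in the second quantification.

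**Figure D3:**
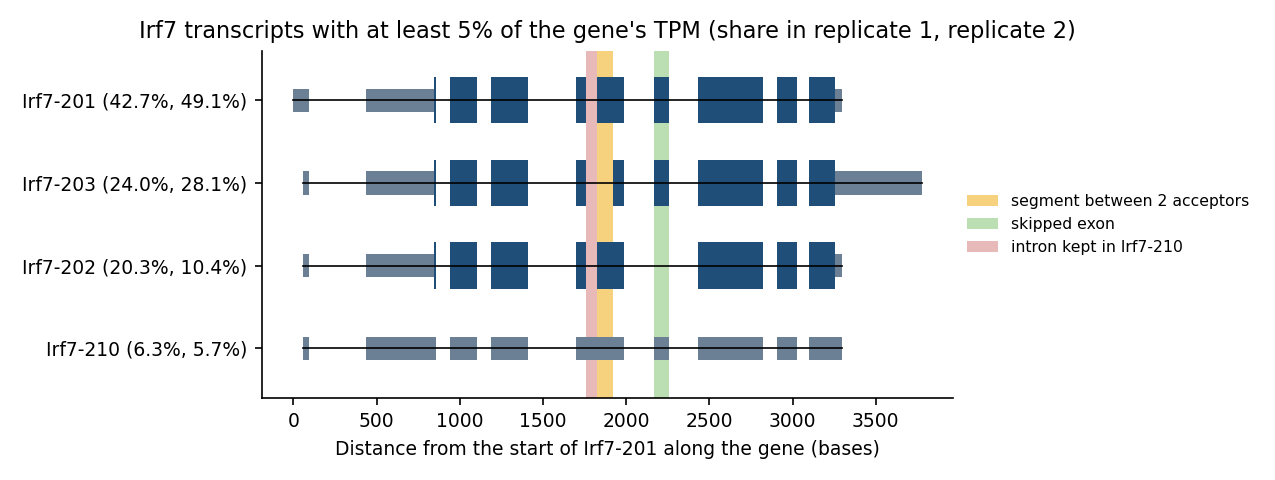
Exon models of the 4 Irf7 transcripts with at least 5% of the gene's TPM in either library, against distance in bases along the gene from the start of Irf7-201. Tall boxes are coding exons, low boxes are non-coding, and shading marks the segment between the acceptors, the skipped exon and the retained intron; shares are those of replicates 1 and 2. The models differ at these 3 places and at their ends, where Irf7-203 runs 477 bases past Irf7-201.

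Irf8 had close isoform shares in the 2 libraries, with a largest difference of 0.27 percentage points, and Irf9 differed by up to 8.38 points. Irf1, Irf3 and Irf5 had shares more than 20 points apart. Irf8-201 held 97.98% and 98.18% of Irf8. Irf9-202 held 55.5% and 63.8% of Irf9, followed by Irf9-205 with 30.7% and 25.9% and Irf9-203 with 11.4% and 7.93%. Irf1-202, with 987 coding bases, held 98.4% of Irf1 in replicate 1 and 74.9% in replicate 2. Irf1-208, a shorter coding model lacking 1304 bases of Irf1-202 and adding none, held 0.32% and 19.4%. The second quantification put Irf1-202 at 71.9% and 36.8% and Irf1-208 at 26.8% and 47.7%, so the leading Irf1 transcript in replicate 2 depended on the quantification. Both gave Irf1-208 a larger share in replicate 2, and also Irf1-205, a transcript with no coding sequence, which held 0.08% and 3.78% in the first and 0.27% and 14.2% in the second.

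Irf5-201, the leading model with 1491 coding bases, held 92.6% and 69.5% of Irf5. Irf5-204, a model of 402 bases that all lie in Irf5-201, held 2.91% and 19.0%, from only 25.5 and 121 reads. Irf5-205 held 0.37% and 10.9%, from 34.03 and 724.93 reads with posterior SDs of 11.55 and 132.08. Its annotated end, 4552 bases past that of Irf5-201, lies in the overlap with Tnpo3, where reads cannot be assigned with certainty. Irf3-201 held 71.4% and 41.6% of Irf3, but 30.1% and 16.7% in the second quantification, where it led in replicate 1 and Irf3-207 led in replicate 2. Irf3-207, a retained-intron model, held 5.89% and 15.3% (27.3% and 30.4% in the second quantification). Irf3-202 held 0% and 16.8%, from 0 and 125.54 reads with posterior SDs of 12.23 and 37.54. Irf3-213 held 6.80% and 6.34%. Irf3-211, a model of 369 bases that all lie in Irf3-201, held 7.72% and 7.87% from only 8.12 and 5.49 reads. Retained-intron models together held 12.1% and 23.3% of Irf3 and 7.63% and 6.88% of Irf7, but 39.2% and 43.4% of Irf3 and 11.9% and 10.7% of Irf7 in the second quantification. For Irf3 and Irf5 the leading model was thus lower in replicate 2 by both quantifications, by unequal amounts.

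Irf2-201 held 71.4% and 81.0% of Irf2, with Irf2-203 at 12.2% and 4.47% from 25.8 and 5.62 reads, and Irf2-210, annotated for nonsense-mediated decay, at 3.82% and 6.52%. Irf4-202 held 100% and 43.2% of Irf4 and Irf4-201 held 0% and 56.8%. Those 2 models differ by 3 bases, and with posterior SDs of 10.9 to 15.4 reads on 48 and 101 reads their shares are not resolved at this depth. A difference of at least 20 points in some transcript's share was seen in 3 of the 7 members averaging 1000 reads or more (Irf1, Irf3 and Irf5) and in 18.2% of the 4694 comparable genes, whose median largest difference was 7.17 points.

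**Figure D4:**
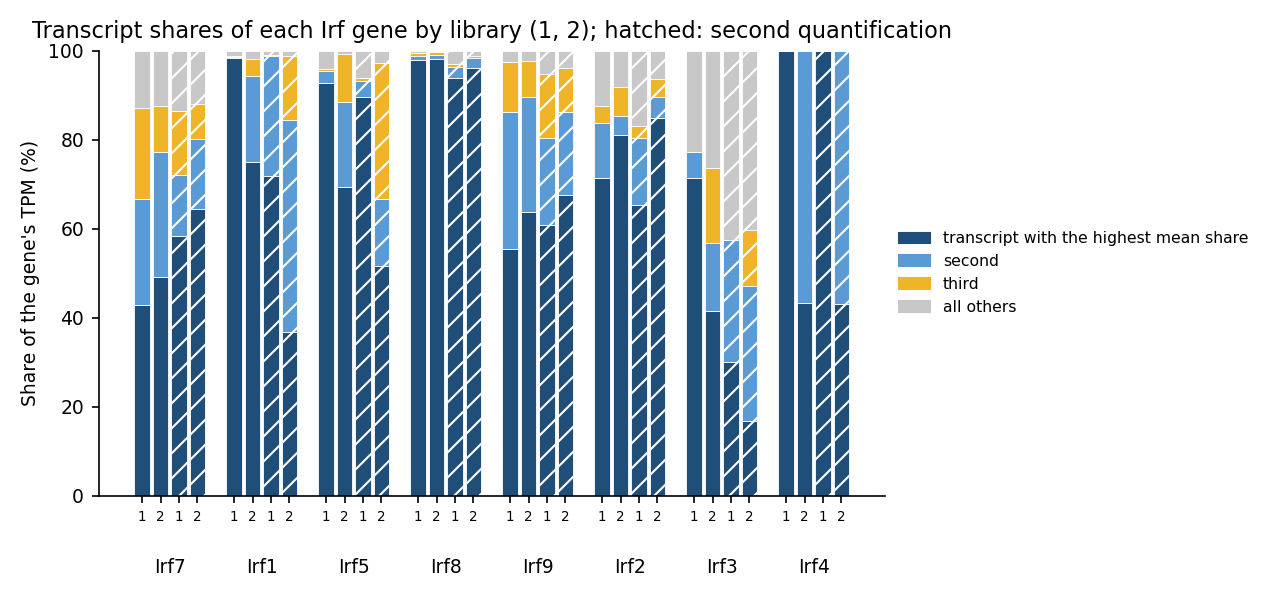
Share of each gene's TPM (vertical axis, %) held by its 3 leading transcripts and all others, in replicates 1 and 2; plain bars are the alignment-based quantification and hatched bars the second. Irf8 is nearly all 1 transcript in the 4 bars, while the bars of Irf1, Irf3 and Irf5 differ between libraries and between quantifications.

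The signalling genes around the family were largely present. Of 17 kinases and adaptors upstream of IRFs, 15 had at least 10 TPM in both libraries, with a median of 51.1 TPM. The kinase Ikbke, which encodes IKKε, was at 224.08 and 240.04 TPM (232 ± 11.3), and the adaptor Tank at 137 and 218.79 TPM (178 ± 57.8). Myd88 was at 193.04 and 160.19 TPM (177 ± 23.2) and the kinase Tbk1 at 70.62 and 94.14 TPM (82.4 ± 16.6). These are the 4 highest of the list; all 17 were below Irf7 in both libraries. In the exact binomial test 5 of the 17 were called in the direction of replicate 1 and 10 in that of replicate 2. The furthest apart by scaled reads was Slc15a4, a lysosomal transporter that acts in the endosomal route to IRF5. It was 2.05-fold higher in replicate 1 by scaled reads, and at 87 and 67.91 TPM.

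Of 16 DNA-binding partners and coactivators, 11 reached 10 TPM in both libraries, with a median of 42.1 TPM. Stat2, which binds IRF9 in ISGF3, was at 348.54 and 295.98 TPM, above Irf9 in both libraries. Spi1 is given above, and Batf, a partner of IRF4 and IRF8 at composite AP-1 elements, was at 209.73 and 241.17 TPM. Its relative Batf3 was at 7.21 and 2.34 TPM. By scaled reads Batf3 was 3.53-fold higher in replicate 1 and the furthest apart of this list. Of 15 tested, the calls were 5 in favour of replicate 1 and 4 in favour of replicate 2.

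Of 16 inhibitors and modifiers of IRF signalling, 11 reached 10 TPM in both libraries, with a median of 34.1 TPM. Usp18, which blocks signalling at the interferon receptor, was at 309.82 and 230.3 TPM, and Tnfaip3, the A20 deubiquitinase, at 200.22 and 271.66 TPM. The kinase Lyn, an inhibitor of IRF5, was at 244.52 and 205.29 TPM and the ubiquitin ligase Trim21 at 56.93 and 108.45 TPM. Socs1, which inhibits JAK kinases, was low at 3.71 and 1.83 TPM. By scaled reads Socs1 was the furthest apart, 2.02-fold higher in replicate 1. The test called 10 of the 16 higher in replicate 1 and 4 higher in replicate 2.

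All 7 interferon receptor and JAK kinase genes reached 10 TPM in both libraries, with a median of 107 TPM. The type I interferon receptor chains Ifnar2 and Ifnar1 were at 193.25 and 256.3 TPM and at 83.74 and 171.54 TPM. Ifngr1 of the interferon-gamma receptor was at 113.2 and 113.45 TPM and Jak1 at 94.98 and 118.94 TPM. By scaled reads Jak2 was furthest apart, 1.66-fold higher in replicate 2, and Ifnar1 was 1.35-fold higher there. By TPM Ifnar1 was further apart than Jak2. The calls were 1 in favour of replicate 1 and 5 in favour of replicate 2.

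Of 38 genes known as IRF targets, 33 reached 10 TPM in both libraries, and their median of 316 TPM was the highest of the 5 gene lists. The chemokine Ccl5 was at 19149 and 11162 TPM and Cxcl10 at 2817 and 2645 TPM. The ubiquitin-like modifier Isg15 was at 2179 and 1527 TPM and Ifit2, an RNA-binding antiviral gene, at 1481 and 1362 TPM. Irf7, itself an interferon-stimulated gene, was thus within the range of these leading targets. Among the interferon genes, Ifnb1 was at 13.68 and 14.65 TPM from 200 and 148 reads, while Ifna2, Ifna4 and Ifna5 had 0 reads in both libraries. A count of 0 allows up to 3 reads, or 0.0661 and 0.0934 CPM (reads scaled to library size), counting error only. Il12b, a subunit of interleukin 12, was furthest apart by scaled reads, 4.58-fold higher in replicate 2. The test called 12 of 35 higher in replicate 1 and 21 in replicate 2. Usp18 stands in 2 of these lists. Most list genes are deeply read, so their calls are set beside genes of like depth. Among the 5039 tested genes with a mean of 1000 reads or more, the test called 37.5% in favour of replicate 1 and 47.0% in favour of replicate 2, and their median log2 ratio was 0.05. At that depth 16 kinases and adaptors had 4 and 10 calls and a median of 0.18, and 12 partners had 3 and 4 calls and a median of 0.06. The 10 inhibitors and modifiers had 5 and 3 calls and a median of -0.08. The 7 receptors and JAK kinases had 1 and 5 calls and a median of 0.32, and 31 targets had 12 and 19 calls and a median of 0.12. Nothing was tested about these lists as a whole.

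**Figure D5:**
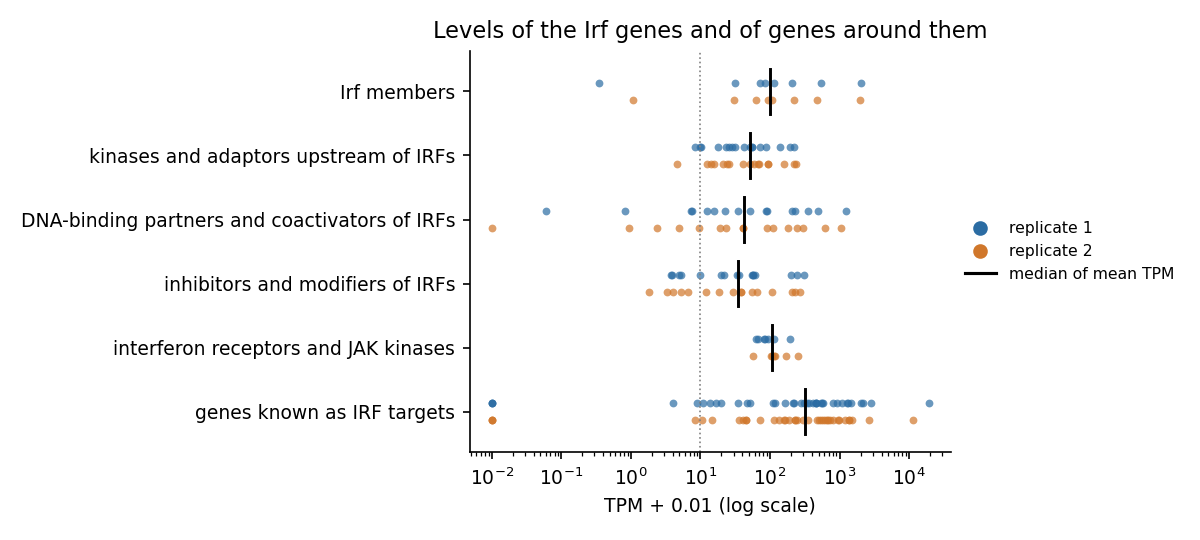
TPM plus 0.01 (horizontal axis, log scale) of the 8 members and of the genes in 5 lists around them, with 1 point per gene and library. Black bars are the median of the mean TPM, from 34.1 for inhibitors and modifiers to 316 for known targets, and the dotted line is 10 TPM.

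The identity of the cells was checked by markers. All 9 macrophage markers exceeded 10 TPM in both libraries, led by Lyz2, Cd68, Adgre1 and Cd14. Irf4 and Irf8 are also made in B cells and dendritic cells, so those markers are given beside them. Of 8 B cell and plasma cell markers 7 were under 1 TPM in both libraries, with Cd79b at 7.31 and 2.47 TPM the exception, and Ebf1 had 0 reads. Of 8 conventional dendritic cell markers 6 were under 1 TPM, the others being Batf3 and Ccr7, and of 6 plasmacytoid markers 5 were under 1 TPM, the exception being Tcf4 at 24.64 and 36.36 TPM. Summed B cell markers were at 7.61 and 2.57 TPM and conventional dendritic cell markers at 12.7 and 6.59 TPM, both lower in replicate 2. Most of the first sum was Cd79b and most of the second was Batf3 and Ccr7. Plasmacytoid markers summed to 26.0 and 37.7 TPM, mostly Tcf4, which was higher in replicate 2. Of the others, all under 1 TPM, Spib and Pacsin1 were higher in replicate 2 and Siglech, Ccr9 and Klk1 lower. Neutrophil markers summed to 63.5 TPM in replicate 1 and 6.58 in replicate 2, with S100a8, S100a9, Ngp and Ltf higher in replicate 1 and Ly6g at 0 reads. T cell and NK cell markers summed to 3.34 and 0.04 TPM. Most of that sum was Gzmb, at 2.46 and 0.04 TPM from 89 and 1 reads, and the other 6 were under 1 TPM in both libraries. The part of such cells in the differences of Irf4, Irf1 and the other members was not tested. In bulk samples fewer cells of a type and less RNA per cell cannot be told apart.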

How the data were processed

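PolyA plus RNA from 2 libraries of 1 group was analysed. Values refer to mm10 and GENCODE M21, per the notes deposited with each sample; names and versions of the programs were not given in the sources used here. The deposited gene table gives expected counts per gene, with totals of 45377715 and 32112416, from alignments to the transcriptome. It also gives TPM values, scaled by the authors over every feature of the table, and FPKM values, deposited as fragments per kilobase scaled to library size. The deposited transcript table gives each transcript's percent of its gene and a posterior SD of its count. The second deposited quantification gives estimated counts and TPM per transcript and was summed to genes.

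Expected counts were rounded to whole numbers. Library sizes were scaled by TMM (edgeR 4.0.16, R 4.3.3). The 12552 genes whose mean expected count was 10 or more were tested by an exact two-sided binomial test (2 times the smaller tail) with Benjamini-Hochberg adjustment at 0.05. The log2 ratio used a prior of 0.5 reads. The test was checked on simulated counts that held counting error alone, so the check cannot show how the test behaves on these libraries. The test measures counting error only: amplified reads share molecules.

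The members, the 5 gene lists and the 6 marker lists were chosen with earlier results of these data known. Named were all members, the 4 highest genes of each of the 5 gene lists (1 of these is not reported here) and its gene furthest apart between libraries, transcripts with at least 5% of a member and genes overlapping a member; markers and other genes named were chosen after their values were seen. Start-site windows are RefSeq's on GRCm38.p6, and Irf7 segments were taken from the GENCODE M21 transcript sequences by their annotated exons. The alternatives tried were library totals, DESeq2 1.42.0 size factors, other filters and levels, TPM with a pseudocount of 1 or 0.01, FPKM, the second quantification, TPM rescaled to nuclear annotated genes and leaving out a library.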

Additional observations from a re-analysis of the deposited data

How the results depend on the processing

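With 1 group of 2 libraries no condition was compared, so every difference is between libraries and the spread may be technical. The number of members at 10 TPM or more stayed at 7 at levels of 1, 5 and 20 TPM, in the second quantification, after rescaling and with either library alone, and was 6 at 50 TPM. The number called different was 7 with TMM, where 8176 of 12552 tested genes were called. It was 6 with DESeq2 size factors (8148 of 12552 genes) and with library totals (8275 of 12552). A mean of 100 reads or more also gave 6 (7274 of 9702 genes), but that filter leaves out Irf4, with 48 and 101 reads. The second quantification gave 7 (8496 of 13868 genes), as did no filter (8035 of 18863). Calling by a 2-fold difference alone gave 1, against 11.3% of tested genes. The median of the members' mean levels was 100.2 TPM, against 67.7 in FPKM, 89.2 TPM in the second quantification and 106 TPM when rescaled to nuclear annotated genes; with 1 library left out it ran from 99.9 to 100.4. The log2 ratio of Irf2, 0.03 by TMM-scaled reads, turned to -0.036 under library totals, -0.033 in the second quantification and -0.17 by TPM at either pseudocount. That of Irf5, -0.20 by reads, was 0.081 and 0.082 by TPM with a pseudocount of 1 and 0.01, and that of Irf7, -0.02, was 0.0052 under DESeq2 size factors. That of Irf4, 1.63 by reads, was 0.62 by TPM with a pseudocount of 1. The median share of the leading transcript was 73.9%, and 67.4% in the second quantification. The cause of these shifts was not tested. Ratios and calls need both libraries, so leaving out a library gives no value for them. No paired analysis was possible because there is 1 group. Depth limits Irf4 most: its shares rest on 48 and 101 reads.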
